A study of Homo sapiens with 8 samples.

Results

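The genes of the NRF2 antioxidant response were followed in H1299 cells, a long-established line from a human non-small cell lung cancer, after knockdown of USF1 or of UGT1A3. The members were 10 genes, namely NFE2L2, KEAP1, HMOX1, NQO1, GCLC, GCLM, TXNRD1, OSGIN1, ABCC2 and ABCC3. They were taken as all probe sets that the platform annotation assigns to exactly 1 of these symbols, which gave 23 of the 49293 non-control probe sets and all 10 genes, of 18132 genes named in this way. All cells were H1299 transfected with short hairpin RNA. The USF1 set had 3 arrays of cells with hairpins against USF1, a basic helix-loop-helix transcription factor that binds E-box sequences, and 3 arrays of its own control. The UGT1A3 set had 1 array of cells with hairpins against UGT1A3, an enzyme that attaches glucuronic acid to bile acids, hormones and drugs, and 1 array of its own control. What the control cells received, the time after transfection and the number of hairpins per gene are not given in the sources used here.

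NRF2, the product of NFE2L2, is a basic leucine zipper factor that switches on genes against oxidants and electrophiles. In unstressed cells KEAP1 holds NRF2 and delivers it to a CUL3 ubiquitin ligase for degradation, and oxidants or electrophiles that modify cysteines of KEAP1 release it. NRF2 then pairs with a small MAF protein on the antioxidant response element (ARE), and in lung cancers the pathway is often active through mutation of KEAP1 or NFE2L2. Since NRF2 is controlled mainly through protein stability, the RNA level of NFE2L2 does not measure its activity. The RNA of its target genes is at most an indirect read-out, and NRF2 protein was not measured.

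The ARE core and the E-box were looked for in the 250 bases upstream of the annotated starts. Every stretch with an ARE core in either form in the last 120 bases before the start is shown, because NRF2 acts through the ARE. The matches were found by their letters alone, and whether NRF2 acts on a gene through them was not tested. RefSeq promoter entries (GRCh38.p14) matched 8 of the 10 genes with 11 start sites, and HMOX1 and ABCC3 had none. Both strands were searched. The core in the form TGACNNNGC stood upstream of 4 of the 11 start sites, in 3 genes, against 10.9% of all 35116 promoters. The form TGAGNNNGC stood upstream of 5 start sites, in 5 genes, against 14.8% of all promoters. The canonical E-box CACGTG stood upstream of 0 of the 11 start sites, against 6.34% of all promoters. The lines below give the 120 bases before the start, 5′ to 3′ on the strand of the gene, with the matches in capitals. They are of the TGACNNNGC form in KEAP1, GCLM and TXNRD1, and of the TGAGNNNGC form in NFE2L2, NQO1 and OSGIN1. Starts of a gene are numbered along its direction of transcription.
NFE2L2 start 2, chr2:177264132-177264251, minus strand: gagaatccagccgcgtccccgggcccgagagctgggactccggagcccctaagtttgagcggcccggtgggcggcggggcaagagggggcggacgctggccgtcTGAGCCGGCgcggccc
KEAP1 start 2, chr19:10502772-10502891, minus strand: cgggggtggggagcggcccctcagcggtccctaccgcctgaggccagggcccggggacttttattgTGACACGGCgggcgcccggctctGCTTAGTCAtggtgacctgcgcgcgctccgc
NQO1 start 1, chr16:69726561-69726680, minus strand: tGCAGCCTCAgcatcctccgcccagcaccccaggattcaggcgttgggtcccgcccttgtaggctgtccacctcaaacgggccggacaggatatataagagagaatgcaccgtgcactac
GCLM start 1, chr1:93909431-93909550, minus strand: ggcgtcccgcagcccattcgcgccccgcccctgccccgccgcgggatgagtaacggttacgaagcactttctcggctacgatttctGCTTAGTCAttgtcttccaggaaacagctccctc
TXNRD1 start 1, chr12:104215659-104215778, plus strand: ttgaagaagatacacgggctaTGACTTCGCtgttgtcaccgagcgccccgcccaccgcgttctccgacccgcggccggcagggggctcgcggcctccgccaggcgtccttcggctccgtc
TXNRD1 start 2, chr12:104286912-104287031, plus strand: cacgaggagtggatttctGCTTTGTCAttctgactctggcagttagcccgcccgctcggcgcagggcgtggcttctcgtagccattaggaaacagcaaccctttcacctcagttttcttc
OSGIN1 start 1, chr16:83953120-83953239, plus strand: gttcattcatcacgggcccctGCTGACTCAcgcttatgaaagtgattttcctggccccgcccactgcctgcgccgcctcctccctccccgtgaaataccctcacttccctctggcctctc

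KEAP1 and GCLM carried the same 9 letters GCTTAGTCA, which read TGACTAAGC on the other strand, at -31 and -34 counted back from the start. These 9 letters, on either strand, were held by 30 of all 35116 promoters. The OSGIN1 match contains TGACTCA, a site form that AP-1 factors also bind and that 4.2% of all promoters hold. The NFE2L2 match began nearest to its start, at -16, and the NQO1 match at -119. The map of ARE cores also draws matches farther upstream, and GCLC and ABCC2 held neither form in the 250 bases. A match is a description of letters, and factor binding was not measured.

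**Figure D1:**
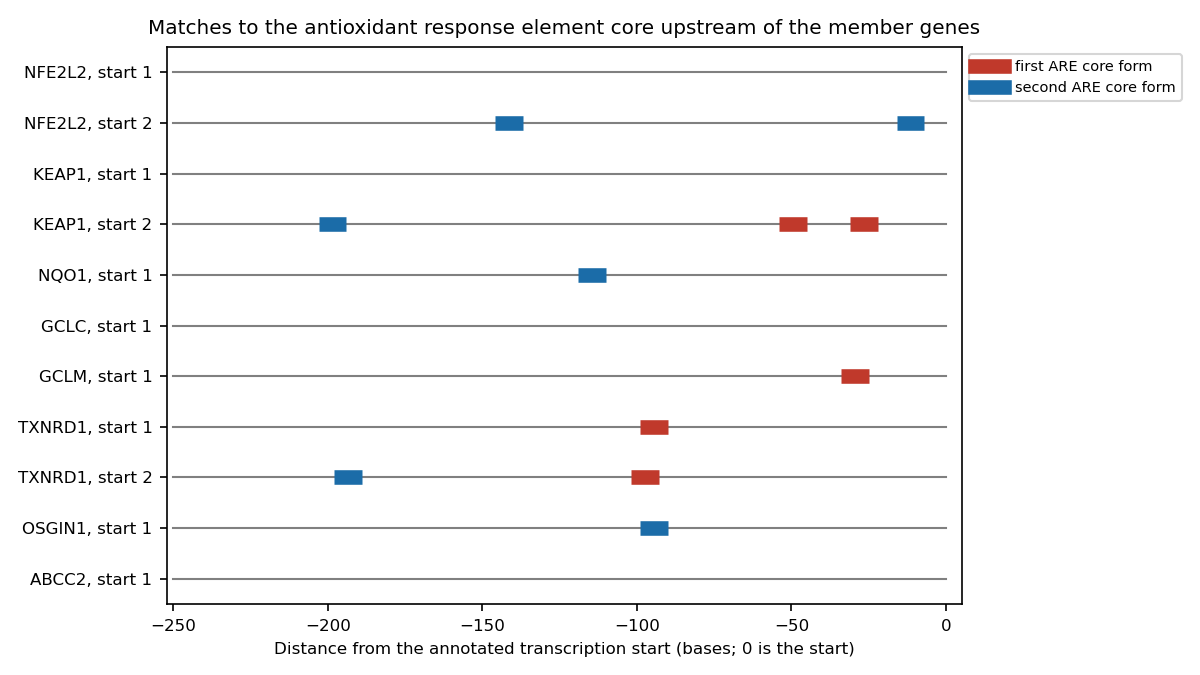
Map of ARE core matches in the 250 bases upstream of 11 annotated starts of 8 member genes. The x axis is the distance from the start in bases, red marks TGACNNNGC and blue TGAGNNNGC on either strand. KEAP1 start 2 holds 2 red matches, and GCLM and both TXNRD1 starts hold 1 each.

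Levels are log2 intensities of a probe set, and a difference is knockdown minus control on that scale. Probe sets whose mean over the arrays of a set lay under the 40th percentile were set aside as dim, a limit of log2 5.63 for the USF1 set and 4.76 for the UGT1A3 pair. Probe sets were tested singly in the USF1 set, with a threshold of 0.05 on the limma adjusted p over all 29576 tested probe sets. A gene is counted by its probe set of highest mean. Array medians ran from 6.53 to 6.55 in the USF1 set and from 5.59 to 5.63 in the UGT1A3 pair, so each knockdown was set only against its own control. The median within-group SD was 0.06. The labels do not say whether the 3 arrays of a group are separate cultures. The p-values therefore cover the spread between these samples alone, which may be technical. In such bulk RNA, fewer cells with a transcript and less of it per cell cannot be told apart.

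The targeted gene USF1 read 6.31, 6.55 and 6.42 in its controls and 6.06, 5.88 and 6.13 in the knockdown arrays. The groups did not overlap (difference -0.40, SE 0.08, limma adjusted p = 0.00889). The knockdown signal was 75.6% of control, so most of the USF1 signal on this probe set remained. The knockdown readings lay close above the dim limit of the USF1 set. Keratins and vimentin of the carcinoma line were bright in all arrays. Summed linear intensities of KRT8, KRT18 and VIM were 31650 to 32170 in the USF1 controls and 32200 to 32350 in the knockdown arrays, and KRT8 rose on all 8 of its probe sets (0.25 on the brightest, limma adjusted p = 0.00278). The sums of the alveolar and airway, leukocyte, endothelial and fibroblast markers overlapped between the USF1 groups, and 0 of their 8 testable genes passed. The part of these markers in the results was not tested. No probe set was specific to UGT1A3. The 9 probe sets shared within the UGT1A locus were all dim in the UGT1A3 pair, with differences from -0.45 to 0.06, so the UGT1A3 knockdown could not be checked on this array.

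After USF1 knockdown the members split by direction. KEAP1, HMOX1, NQO1 and the export pump ABCC2 rose, whereas both subunits of glutamate-cysteine ligase (GCLC and GCLM) and the thioredoxin reductase TXNRD1 fell, as did the brighter probe set of NFE2L2. Of the 23 probe sets 21 were bright enough to be tested, and both ABCC3 probe sets were not. The dimmer GCLM probe set was under the limit in the knockdown arrays and tested only through its control level, so it is left out of the counts here. Of the other 20, 7 rose, 7 fell and 6 did not pass, so that 14 were called. Of all tested probe sets 37.3% were called (19.8% upward and 17.5% downward), and also 37.3% of those with both group means at or above the limit. Counted by gene, 4 rose, 4 fell and OSGIN1 did not pass, against 38.7% called over 11448 genes (20.9% upward and 17.8% downward). Probe sets of 1 gene report on the same RNA and are not independent of each other. Without USF1 control 1, 4 member probe sets fell and 5 member genes passed. All called differences were small, from 0.12 to 0.37 in size, and none reached 1.5-fold, which 1.49% of the tested probe sets reached with a call. The groups did not overlap in 16 of the 20, against 51.2% of all tested probe sets and 51.3% of those with both means at or above the limit.

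**Figure D2:**
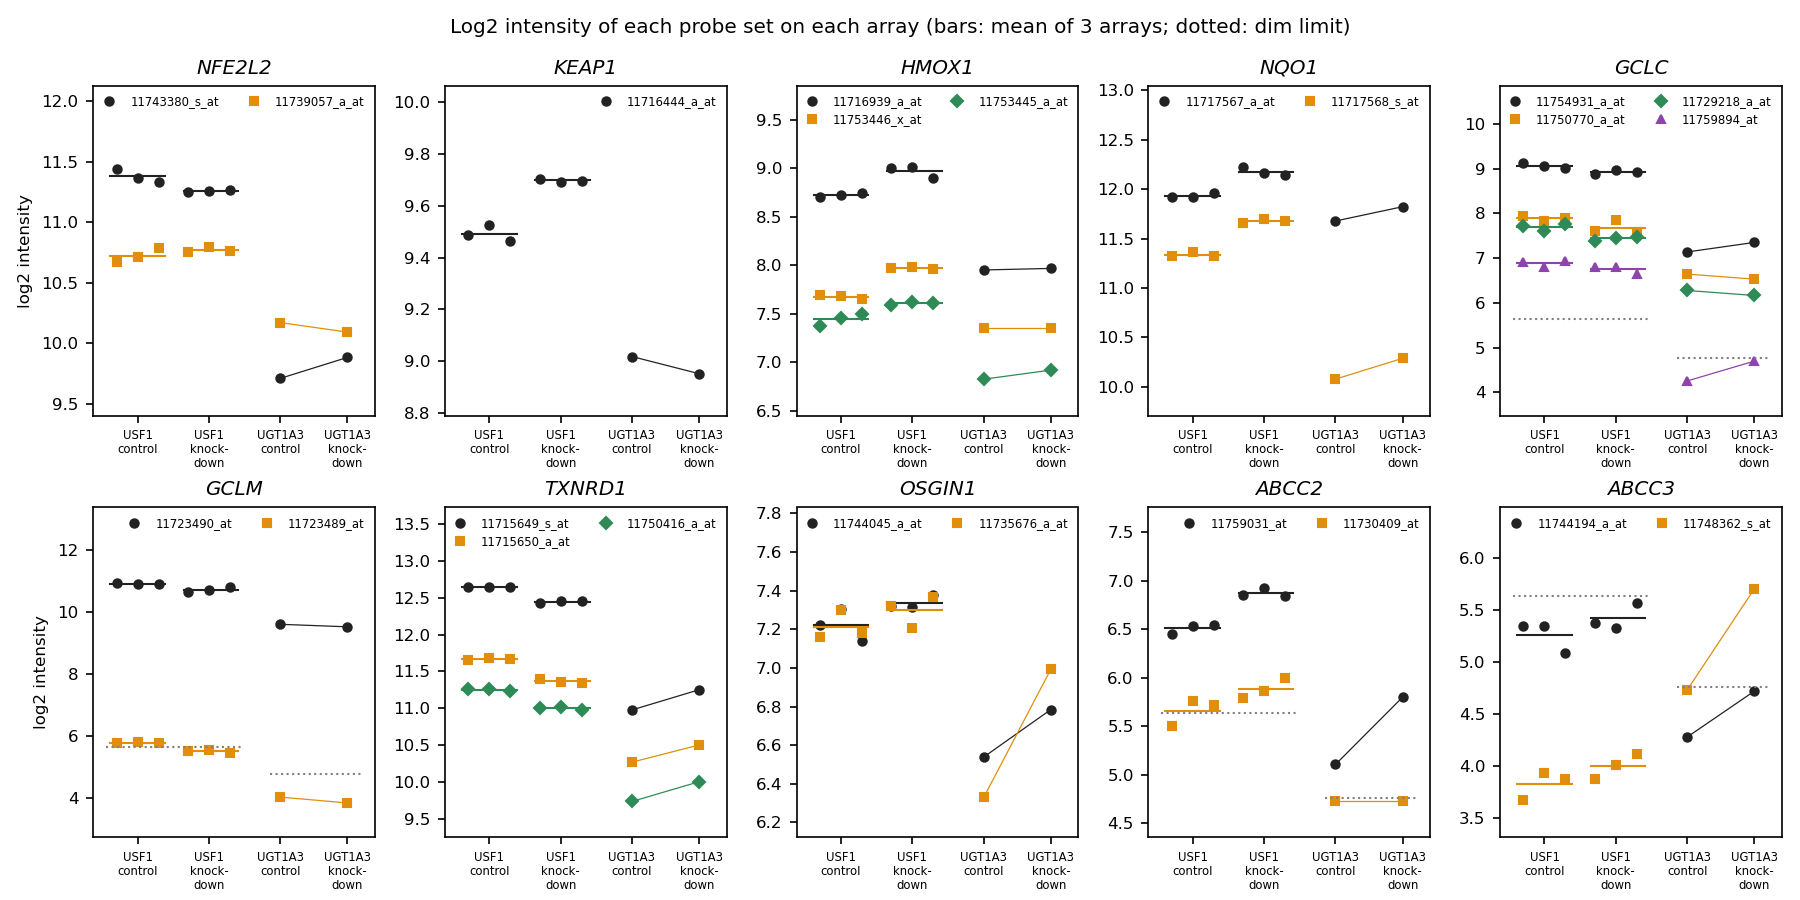
Log2 intensity (y axis) of every member probe set on each array, 1 panel a gene, with 3 USF1 control, 3 USF1 knockdown, 1 UGT1A3 control and 1 UGT1A3 knockdown array on the x axis. Short bars are the means of 3 arrays and dotted lines the dim limits of 5.63 and 4.76. NQO1, HMOX1 and KEAP1 lie higher and TXNRD1 lies lower in the USF1 knockdown arrays, with no overlap between the groups.

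Of the regulators, NFE2L2 itself gave no single answer. Its brighter probe set (11743380_s_at) read 11.44, 11.37 and 11.33 in the USF1 controls and 11.25, 11.26 and 11.27 in the knockdown arrays. The knockdown values lay below all controls, and the mean went from 11.38 ± 0.06 to 11.26 ± 0.01 (SD, n = 3 each), or 91.8% of control (difference -0.12, SE 0.04, limma adjusted p = 0.0387). This call held without USF1 control 3 and was lost without each of the other 5 arrays, with adjusted p from 0.0444 to 0.109. The second probe set (11739057_a_at) read 10.67, 10.72 and 10.78 against 10.76, 10.80 and 10.76. These groups overlapped, and the difference was 0.05 with a 95% interval from -0.04 to 0.14 (limma adjusted p = 0.379). With both probe sets averaged the NFE2L2 difference was -0.04 (limma adjusted p = 0.252).

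KEAP1, the adaptor that marks NRF2 for degradation, has 1 probe set, which read 9.49, 9.53 and 9.46 in control cells and 9.70, 9.69 and 9.70 after USF1 knockdown. All knockdown arrays lay above all controls. The rise was 0.21 (SE 0.03, limma adjusted p = 0.00281), or 115% of control, and KEAP1 passed without any single array.

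HMOX1 encodes the inducible haem oxygenase, which opens haem to biliverdin, iron and carbon monoxide. Its brightest probe set read 8.70, 8.73 and 8.74 in control cells and 9.00, 9.01 and 8.90 after USF1 knockdown. The difference was 0.25 (SE 0.04, limma adjusted p = 0.00374), or 119% of control. The dimmer probe sets, 11753446_x_at and 11753445_a_at, differed by 0.30 (limma adjusted p = 5.79e-04) and 0.16 (limma adjusted p = 0.0169). All 3 HMOX1 probe sets were higher in each knockdown array than in each control. The ending x_at marks probes that can bind other transcripts as well.

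NQO1, a quinone reductase, is a classical read-out of the ARE and has 2 probe sets. Its probe set 11717567_a_at read 11.92, 11.92 and 11.96 in control cells and 12.23, 12.17 and 12.14 in the knockdown arrays, a rise of 0.24 (SE 0.04, limma adjusted p = 0.00232). Its probe set 11717568_s_at read 11.33, 11.36 and 11.32 against 11.66, 11.70 and 11.68. The rise there was 0.34 (SE 0.03, limma adjusted p = 4.21e-04), to 127% of control, so the probe sets shared the direction and the groups did not overlap on either.

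Glutamate-cysteine ligase makes the first and rate-limiting step of glutathione synthesis, with GCLC as its catalytic and GCLM as its modifier subunit. GCLC had 4 probe sets, all lower on average after USF1 knockdown, by 0.14 to 0.26 in size. The brightest, 11754931_a_at, read 9.13, 9.05 and 9.02 in control cells and 8.88, 8.98 and 8.92 in the knockdown arrays. It fell by 0.14 on the log2 scale (SE 0.04, limma adjusted p = 0.0380), a call that held without USF1 knockdown 2 and was lost without each of the other 5 arrays, with adjusted p from 0.0335 to 0.116. The probe set 11729218_a_at read 7.70, 7.61 and 7.77 against 7.38, 7.45 and 7.48. There GCLC fell by 0.26 on the log2 scale (SE 0.05, limma adjusted p = 0.00703), and it passed without any single array. On 11750770_a_at USF1 knockdown 2 stood apart, at 7.84 beside 7.60 and 7.58, within the control range of 7.83 to 7.94. The difference on that probe set was -0.21 (limma adjusted p = 0.0596), and without USF1 knockdown 2 it was -0.30 (limma adjusted p = 0.00506). The dimmest, 11759894_at, differed by -0.14 (95% interval -0.28 to 0.004, limma adjusted p = 0.115).

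GCLM read 10.93, 10.90 and 10.91 in control cells and 10.65, 10.71 and 10.81 in the knockdown arrays on its bright probe set 11723490_at. All knockdown values were lower, with more spread (SD 0.08) than the controls (SD 0.02). GCLM fell by 0.19 on the log2 scale (SE 0.04, limma adjusted p = 0.0154), to 87.6% of control, and the call was lost without USF1 control 1 (limma adjusted p = 0.055). The second GCLM probe set averaged 5.78 in control cells and 5.50 in the knockdown arrays, across the dim limit of 5.63. With no dim limit, so that the filter could not select it, its limma adjusted p was 0.0107.

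TXNRD1 encodes the cytosolic selenoprotein that reduces thioredoxin, and has 3 probe sets. Its brightest probe set read 12.65, 12.65 and 12.64 in control cells and 12.43, 12.46 and 12.45 after USF1 knockdown. It fell by 0.20 on the log2 scale (SE 0.03, limma adjusted p = 0.00227). The probe sets 11715650_a_at and 11750416_a_at fell by 0.31 (limma adjusted p = 6.28e-04) and 0.25 (limma adjusted p = 0.00108), to 80.9% and 84.0% of control. The groups did not overlap on any of the 3, and each passed without any single array.

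OSGIN1 encodes an oxidative stress-induced growth inhibitor. Its probe set 11744045_a_at read 7.22, 7.30 and 7.14 in the controls and 7.32, 7.32 and 7.38 after USF1 knockdown, with all knockdown values above the controls by a narrow gap. The difference was 0.12 (95% interval 0.002 to 0.23) and did not pass (limma adjusted p = 0.101), although it passed without USF1 control 2 (0.16, limma adjusted p = 0.0465). The other OSGIN1 probe set overlapped between the groups (0.09, limma adjusted p = 0.279).

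ABCC2 and ABCC3 are multidrug resistance pumps that export glutathione and glucuronide conjugates. ABCC2 read 6.45, 6.53 and 6.54 in control cells and 6.86, 6.92 and 6.84 in the knockdown arrays on 11759031_at. This was the largest member change, a rise of 0.37 (SE 0.04, limma adjusted p = 8.00e-04), to 129% of control. On the dimmer ABCC2 probe set, 11730409_at, the difference was 0.23 and did not pass (limma adjusted p = 0.0682). ABCC3 was not tested: its brighter probe set read 5.35, 5.35 and 5.09 in control cells and 5.38, 5.33 and 5.57 in the knockdown arrays, all under the dim limit, and the groups overlapped on both probe sets.

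**Figure D3:**
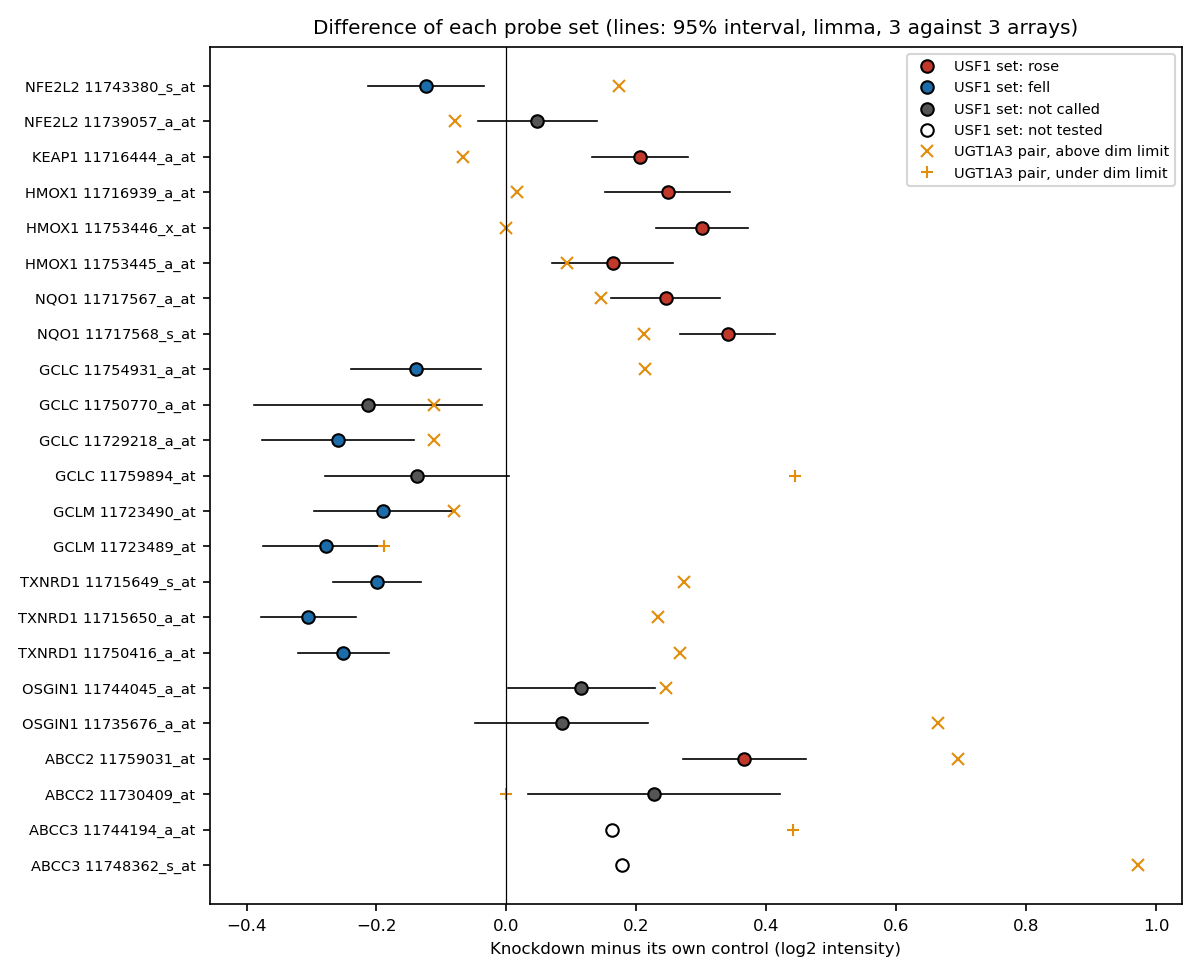
Knockdown minus its own control on the log2 scale (x axis) for the 23 member probe sets (y axis). Circles are the USF1 set with unadjusted 95% intervals from limma (3 against 3 arrays), coloured by call, and crosses are the UGT1A3 pair (1 against 1, no error). The 3 TXNRD1 probe sets lie between -0.31 and -0.20 in the USF1 set and between 0.23 and 0.27 in the UGT1A3 pair.

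Among the printed stretches with TGACNNNGC, those of GCLM and TXNRD1 belong to genes that fell after USF1 knockdown and that of KEAP1 to a gene that rose, and the 9 letters shared by GCLM and KEAP1 stood at genes that moved in opposite directions. NQO1 and ABCC2, which rose, and GCLC, which fell, held no TGACNNNGC in the window. USF1 is known for binding CACGTG, which none of the 8 searched genes held there. With 6.34% of all promoters holding it, its absence from 11 start sites cannot be read either way. Other E-box forms, bases farther upstream, and HMOX1 and ABCC3 were not searched, and control by USF1 was not tested.

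Other genes of the pathway were described through 7 lists of 82 genes, of which 72 had a probe set of their own and 58 were bright enough to be tested. In all 17 rose and 9 fell after USF1 knockdown, which is 44.8% called beside 38.7% of all tested genes. The median difference over all tested genes was 0.01. Lists are given by counts and medians without a test of the list.

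Of 15 genes for NRF2 turnover and its DNA-binding partners 2 rose, 3 fell and 10 did not pass, with a median of 0.03. SQSTM1, the autophagy receptor that can sequester KEAP1, rose by 0.40 (SE 0.03, limma adjusted p = 2.08e-04), although its 5 bright probe sets ran from 0.02 to 0.58. BTRC, a receptor of the other ubiquitin ligase that takes NRF2, rose by 0.29 (limma adjusted p = 0.00367). The small MAF genes MAFF and MAFG fell by 0.43 (limma adjusted p = 6.64e-04) and 0.12 (limma adjusted p = 0.0387). The second MAFF probe set differed by -0.18, and the MAFG call held without USF1 knockdown 1 and was lost without each of the other 5 arrays. NFE2L3, a relative of NRF2, fell by 0.19 (limma adjusted p = 0.0254). That call was lost without USF1 control 2 or 3 or knockdown 1 or 3. The second bright NFE2L3 probe set differed by -0.03 and was not called. With a gene's probe sets averaged the NFE2L3 difference was -0.11 (limma adjusted p = 0.0719). CUL3, which scaffolds the KEAP1 ligase, differed by 0.06 (95% interval -0.01 to 0.13, limma adjusted p = 0.146).

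In the glutathione list 7 of 13 tested genes rose and 3 fell, with a median of 0.12. The genes that fell serve cystine import and glutathione breakdown. SLC7A11 and SLC3A2, the subunits of the cystine and glutamate exchanger, fell by 1.13 (SE 0.05, limma adjusted p = 2.95e-05) and 0.51 (limma adjusted p = 1.95e-04), and the glutathione-degrading enzyme CHAC1 fell by 0.87 (limma adjusted p = 5.64e-04). The genes that rose encode enzymes that use glutathione. They included the lipid hydroperoxidase GPX4 by 0.19 (limma adjusted p = 0.00785), the transferase GSTM3 by 0.24 (limma adjusted p = 0.00998) and the microsomal MGST3 by 0.14 (limma adjusted p = 0.0101). The transferase genes GSTO1, GSTP1, GSTA4 and MGST1 rose by 0.16, 0.13, 0.12 and 0.14 (limma adjusted p = 0.0336, 0.0258, 0.0349 and 0.0149). The GSTO1 call held only without USF1 control 3, that of GSTP1 only without USF1 knockdown 3 and that of GSTA4 only without USF1 control 1 or knockdown 2, when single arrays were omitted. The MGST1 call was lost without USF1 control 1. GSTP1 passed on 1 of 2, GSTA4 on 3 of 4 and MGST1 on 1 of 3 bright probe sets. The glutathione synthetase GSS and the glutathione reductase GSR both differed by -0.10 (limma adjusted p = 0.0591 and 0.0918). The other of the 2 bright GSR probe sets was called lower, at -0.16.

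Of 7 thioredoxin system genes the mitochondrial reductase TXNRD2 rose by 0.30 after USF1 knockdown (limma adjusted p = 9.02e-04, with all 4 bright probe sets called) and glutaredoxin, GLRX, fell by 0.25 (limma adjusted p = 0.00175). TXNRD2 therefore moved opposite to its cytosolic relative TXNRD1. The sulfiredoxin SRXN1, which repairs peroxiredoxins, differed by 0.03 (95% interval -0.05 to 0.11, limma adjusted p = 0.523). Of 5 tested NADPH-supplying genes 2 rose and 3 did not pass, with a median of 0.08. ME1 did not pass on its brightest probe set (-0.13, limma adjusted p = 0.0851). The other of its 2 bright probe sets was called lower, at -0.36. The isocitrate dehydrogenase IDH1 rose by 0.27 (limma adjusted p = 0.00199). The transketolase TKT rose by 0.24 on its brightest probe set (limma adjusted p = 0.00527), but its 3 bright probe sets ran from -0.54 to 0.24 and all were called, and their mean differed by -0.03 (limma adjusted p = 0.658).

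Of 5 tested haem and iron genes 3 rose and 0 fell, with a median of 0.11, beside 38.7% called over all tested genes. The biliverdin reductases BLVRB and BLVRA, which act on the product of haem oxygenase, rose by 0.28 (limma adjusted p = 0.00101) and 0.27 (limma adjusted p = 0.00781). The ferritin light chain gene FTL rose by 0.11 (limma adjusted p = 0.0338, with all 8 probe sets called), although on its brightest probe set the call was lost without each of the 6 arrays in turn (limma adjusted p from 0.0556 to 0.106). The constitutive haem oxygenase HMOX2 differed by 0.05 (limma adjusted p = 0.22). Of 8 tested genes of carbonyl, quinone and xenobiotic metabolism 2 rose, namely the NQO1 relative NQO2 by 0.40 (limma adjusted p = 4.11e-04) and the carbonyl reductase CBR3 by 0.39 (limma adjusted p = 0.00101). AKR1C1, AKR1C3, AKR1B10 and ALDH3A1, often used as read-outs of NRF2 in lung cancer cells, were dim in these arrays. AKR1C2 of the same list was bright and did not pass (0.06, limma adjusted p = 0.427). Of 5 other export pumps 0 rose and 2 fell, which is near the 38.7% called over all tested genes. These were ABCC4 by 0.50 (limma adjusted p = 1.80e-04) and ABCC10 by 0.19 (limma adjusted p = 0.0221, lost without USF1 control 1 or 2). ABCC5 and ABCB1 did not pass on their brightest probe sets, but each had 1 dimmer probe set called. Bright probe sets ran from -0.48 to -0.004 for ABCC5 and from -0.19 to 0.12 for ABCB1.

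**Figure D4:**
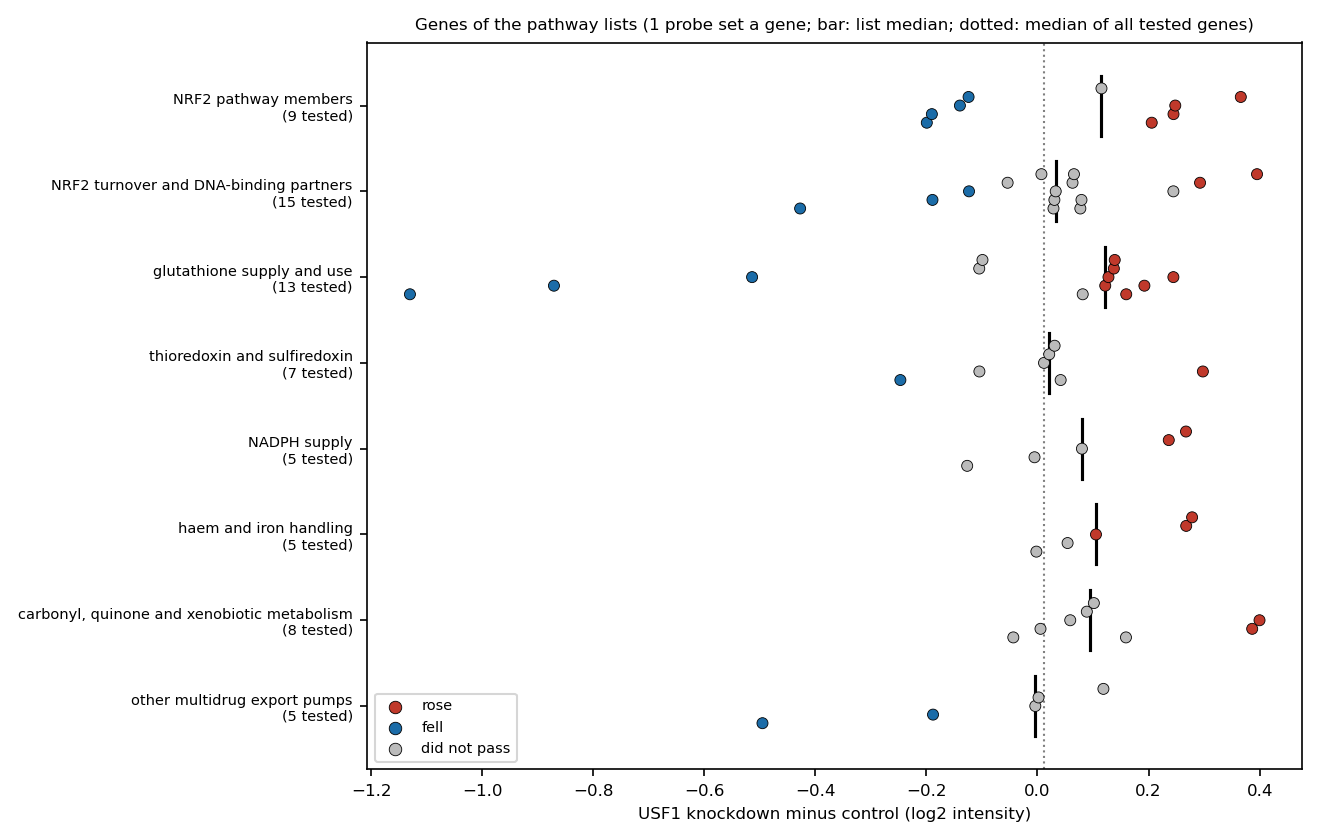
USF1 knockdown minus control on the log2 scale (x axis) for the tested genes of the member list and the 7 other pathway lists (y axis), each gene by its probe set of highest mean. Bars are list medians and the dotted line is the median of all tested genes, 0.01. SLC7A11 and CHAC1 lie farthest to the left, at -1.13 and -0.87.

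In the UGT1A3 pair there was 1 array a group, which leaves the differences without a replicate check or a p-value, as a description of 2 arrays. Of the 23 member probe sets 19 had a mean above the dim limit, and 18 had both arrays above it. Of these 18, 12 were higher, 5 lower and 1 equal in the knockdown array. At least 1.5-fold apart in either direction were 2 of the 18, 1 probe set each of ABCC2 and OSGIN1, both higher. Of all probe sets with both arrays above the limit 3.27% were that far apart in either direction. The probe set of ABCC3 left out here was under the limit in the control. Over all 29581 probe sets with a mean above the limit 3.48% were at least 1.5-fold apart (1.86% upward and 1.61% downward). Higher by any amount were 51.5% of these 29581. The summed marker intensities of the pair, control first, were 20630 and 20280 for the carcinoma line, 290.4 and 270.3 for alveolar and airway cells, and 96.0 and 107 for endothelium. They were 81.1 and 74.6 for fibroblasts and 258.7 and 334.2 for leukocytes. Of the leukocyte markers CD68 was higher by 0.47 and 0.29 on its 2 bright probe sets, CD3E differed by -0.28, and PTPRC and CD14 were dim. The part of these markers in the differences was not tested.

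On 11748362_s_at ABCC3 went from 4.73 in the UGT1A3 control, just under the limit of 4.76, to 5.70, a difference of 0.97 as measured and 0.95 counted from the limit. Its other probe set read 4.28 and 4.72, both dim. ABCC2 read 5.10 and 5.80 on 11759031_at (0.69), while its dimmer probe set read 4.73 in both arrays. OSGIN1 read 6.33 and 6.99 on 11735676_a_at (0.66) and 6.54 and 6.78 on 11744045_a_at (0.25). With 16 intensity units added before log2 these largest differences were 0.68 for ABCC3, 0.51 for ABCC2 and 0.57 for OSGIN1, so that 1 of the 3 stayed past 1.5-fold.

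TXNRD1 was higher in the UGT1A3 knockdown array on all 3 probe sets, by 0.23 to 0.27, reading 10.98 and 11.25 on the brightest. Over all 29581 probe sets with a mean above the limit, the median size of a difference in this pair was 0.16. NQO1 was higher by 0.15 and 0.21, from 11.68 to 11.82 and from 10.08 to 10.29. KEAP1 read 9.02 and 8.95, a difference of -0.07. GCLM read 9.61 and 9.53 on its bright probe set. HMOX1 differed by 0 to 0.09, with 1 probe set at 7.35 in both arrays. The NFE2L2 probe sets again pointed apart, at -0.08 and 0.17, and the bright GCLC probe sets ran from -0.11 to 0.21. Exactly equal values in both arrays, to all decimals of the table, occurred for 633 of the 29581 probe sets (2.14%), and for 26 to 54 of 29576 in any pair of USF1 arrays.

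In the 7 other lists the 2 largest differences of each list in the UGT1A3 pair were read, each gene by its brightest probe set. GSR, which regenerates glutathione, was lower by 0.59, with its 2 probe sets at -0.59 and -0.34, and was the only one of these list genes past 1.5-fold by its brightest probe set. GSTM3 was higher by 0.48. The mitochondrial phosphatase PGAM5, a KEAP1 partner, differed by -0.57 and the kinase gene GSK3B by 0.33. GLRX differed by 0.36 and PRDX1 by -0.10. PRDX6 of the same list differed by -0.03 on its brightest probe set, but its 4 bright probe sets ran from -0.60 to -0.03. The NADPH-supplying genes PGD and IDH1 differed by -0.31 and 0.24. BLVRB and the ferrochelatase FECH were higher by 0.35 and 0.23, NQO2 was lower by 0.39 (a difference of -0.39) and the aldehyde dehydrogenase ALDH3A2 higher by 0.31, with its 3 bright probe sets from -0.10 to 0.31. Of the pumps ABCC10 differed by 0.25, and ABCC1 by 0.22 on its brightest of 3 bright probe sets, which ran from -0.15 to 0.22.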

How the data were processed

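For 8 Affymetrix PrimeView arrays of biotin-labelled total RNA the authors deposited probe set intensities on a log2 scale. That scale was inferred from the range of the values. The submitters' processing notes list MAS5 and give it no role. How the arrays were scaled to each other, the genome build and the annotation version are not given in the sources used here. In all, the table held 49395 probe sets, of which 102 controls were left out. The platform annotation gave 44988 probe sets 1 symbol, 1832 several and 2473 none, and 44961 were matched by Entrez number to a RefSeq gene table of GRCh38.p14 for current symbols. Some listed genes without a named probe set were not analysed here.

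The USF1 set was fitted with lmFit and eBayes of limma 3.58.1 under R 4.3.3 on the 29576 probe sets at or above the 40th percentile of mean intensity, without a replicate block. P-values are two-sided and adjusted by the Benjamini-Hochberg method. This fit was first tested on simulated data with known answers. For the UGT1A3 pair only differences were formed, and a large difference means at least 1.5-fold. The members and the gene lists were chosen with earlier results of these data known, so their counts are descriptions. Named were all member probe sets, the targeted genes, and per list up to 3 genes past the threshold in each direction (for the UGT1A3 pair the 2 largest differences). CUL3, GSS, GSR, SRXN1, HMOX2, KRT8, GSTO1, GSTP1, GSTA4, MGST1 and the dim genes AKR1C1, AKR1C3, AKR1B10 and ALDH3A1 were added for their roles after their values were seen. ME1, ABCC5, ABCB1 and AKR1C2 were also added after their values were seen. The precision is limited by the number of arrays.

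Alternatives were quantile normalization, centring on array medians, no dim limit, a stricter limit (60th percentile), adding 16 intensity units ahead of the log, fitting 1 probe set a gene, averaging a gene's probe sets, an intensity trend with a robust prior, a block for the replicate number, and omitting single USF1 arrays.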

Additional observations from a re-analysis of the deposited data

Results flagged for a closer look

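In 7 of the 18 member probe sets bright in both sets the 2 knockdowns pointed apart. Every USF1 knockdown array lay on one side of the USF1 control mean, and the UGT1A3 knockdown array on the other side of its control. The share of all probe sets that meet this rule was not counted, so the 7 are not read as a result about the members. The difference between the 2 knockdowns was not tested, since the UGT1A3 set has 1 array a group. TXNRD1 showed this on all 3 probe sets, with -0.20, -0.31 and -0.25 after USF1 knockdown and 0.27, 0.23 and 0.27 in the UGT1A3 pair. KEAP1 was at 0.21 and -0.07, and the brightest GCLC probe set at -0.14 and 0.21, while GCLC 11729218_a_at was lower in both sets. The NFE2L2 probe set 11743380_s_at was at -0.12 and 0.17, and 11739057_a_at at 0.047 and -0.079.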

How the results depend on the processing

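Under the alternatives the 7 member probe sets that rose numbered 6 to 8. Leaving out 1 USF1 array at a time gave 4 to 8 that fell (8 as fitted, the dimmer GCLM probe set included), 5 to 7 member genes past the threshold (8) and 8179 to 10250 probe sets in all (11030). With 1 probe set a gene 4657 genes passed, and with a gene's probe sets averaged 4575 passed, since genes replaced probe sets as the unit. Averaging turned TKT from 0.24 to -0.032. With no dim limit the calls of the NFE2L2 probe set 11743380_s_at (adjusted p = 0.107), the GCLC probe set 11754931_a_at (0.101), the HMOX1 probe set 11753445_a_at (0.054), MAFG, NFE2L3, ABCC10, FTL, GSTO1, GSTP1, GSTA4 and MGST1 were lost in limma, where more features were tested. Quantile normalization and median centring ended no call of a member.

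The labels do not say whether the USF1 arrays were paired by replicate number. The correlation of same-numbered deviations was -0.09, 0.17 and 0.08, and that of different-numbered ones ran from -0.226 to 0.155. So few arrays cannot show or exclude a pairing. With the replicate block 9999 probe sets passed and 6 member genes, and the calls of the NFE2L2 probe set 11743380_s_at (limma adjusted p = 0.074), the GCLC probe set 11754931_a_at (limma adjusted p = 0.0745), MAFG, FTL, GSTO1 and GSTA4 were lost while that of ABCC2 11730409_at was gained (limma adjusted p = 0.0224).

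In the UGT1A3 pair 3 member probe sets (the ABCC3 one included) and 1028 in all were at least 1.5-fold apart. With 16 intensity units added these were 1 and 627, with the limit at the 60th percentile 1 and 638, and with probe sets averaged by gene 286 genes. The cause was not tested. Low signal over background limits what can be said of ABCC3, of the dimmer GCLM and ABCC2 probe sets and of the UGT1A locus.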
